A study of Homo sapiens with 10 samples.

Results

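The genes described here encode the hnRNP proteins, the SR proteins and a group of SR-related splicing regulators. They are the entries of the deposited count table that GENCODE release 29 lists as protein-coding and whose symbol begins with HNRNP or with SRSF and a digit, together with PTBP1, RBM25, RBM39, SRRM1, SRRM2, TRA2A and TRA2B. The rule gives 46 of 94946 entries: 28 hnRNP genes (PTBP1 included), 12 SR protein genes and 6 SR-related genes. The 28 include the readthrough gene HNRNPUL2-BSCL2 and HNRNPA1P48, which release 29 lists as protein-coding in spite of a pseudogene symbol. The data are total RNA sequencing counts from PC3, a line grown from a skeletal metastasis of a human prostate carcinoma. Extracellular vesicles (EVs), the membrane-bound particles that cells release, were pelleted from this line at 3 spins that the labels call 2.8K, 10K and 100K without a unit. EV 2.8K, EV 10K and EV 100K have 3 libraries each, and 1 library comes from whole PC3 cells from which no EVs were isolated. All samples share the same line and growth medium with fetal bovine serum, no treatment or genotype differs between them, and the labels do not say whether the 3 sets came from separate cultures. The p-values therefore measure the spread between these libraries, which may be technical.

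hnRNP proteins coat nascent transcripts in the nucleus, and each prefers short sequence motifs, through which it represses or activates nearby splice sites, and several also act in export, stability and translation of mRNA. SR proteins carry RNA recognition motifs and a tail rich in arginine and serine. They bind exonic enhancers, often purine-rich, recruit U1 and U2 snRNP components, and in part shuttle to the cytoplasm with the mRNA. Many genes of both families regulate their own level through poison exons or retained introns that lead to decay of the transcript or to its retention in the nucleus.

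Library totals ranged from 5424964 counts in EV 100K replicate 2 to 28735081 in the cell library. Levels are given as CPM, counts relative to a library total of 1e+06 after scaling with TMM factors, and are compared between genes only after division by the length of the gene's exons in kb. EV 2.8K replicate 1 stood apart from the other EV 2.8K libraries: its chi-square per gene was 140 and 139 against replicates 2 and 3, and 47.7 between those. All pairs of libraries of a pellet differed by more than sampling noise. Of the PC3 and epithelial markers, KRT8, KRT18 and VIM (at least 198, 144 and 115 CPM in every library) were present, and KLK2 and KLK3, markers of androgen-responsive prostate cells, had 0 counts in all libraries. Summed levels of this list of 12 markers were 1865 to 2591 CPM in EV 2.8K, 1348 to 1683 in EV 10K, 523 to 608 in EV 100K and 1323 in cells. Mitochondrially encoded RNA took 4.81 to 12.9% of counts in EV 2.8K, 0.826 to 1.04% in EV 10K, 0.00544 to 0.00802% in EV 100K and 2.88% in cells. Leukocyte markers summed to at most 8.16 CPM in any library and blood and serum markers to at most 5.23 CPM. Fibroblast markers summed to 14.3 to 43.5 CPM in EV 2.8K, 5.94 to 7.89 in EV 10K, 8.02 to 13.8 in EV 100K and 15.3 in cells. The part that these differences have in the results below was not tested. In pellets, fewer vesicles of a type and less RNA per vesicle cannot be told apart.

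The members with the most unequal levels include genes whose coding sequence holds long purine tracts, and windows of 90 bases are shown for genes at both ends of the range. Each is the most purine-rich window of the coding sequence in GENCODE release 29 on GRCh38, printed 5′ to 3′ on the coding strand, with purine runs of at least 6 bases in capitals. RBM25 (plus strand, chr14:73103197-73103286, exon 10) and SRSF11 (plus strand, chr1:70250369-70250458, exon 12) encode domains rich in charged residues there, and SRSF2 (minus strand, chr17:76736884-76736973, exon 1) has no run of that length in its window.
RBM25: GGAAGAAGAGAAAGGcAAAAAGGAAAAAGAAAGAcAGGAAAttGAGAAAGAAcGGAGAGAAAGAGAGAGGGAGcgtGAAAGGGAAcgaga
SRSF11: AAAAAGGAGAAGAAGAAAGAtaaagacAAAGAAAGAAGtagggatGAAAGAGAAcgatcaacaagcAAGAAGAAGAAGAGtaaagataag
SRSF2: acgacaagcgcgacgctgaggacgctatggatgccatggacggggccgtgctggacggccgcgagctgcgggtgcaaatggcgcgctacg
The RBM25 window has 82 purines of 90, a number that 0.635% of 11971 tested protein-coding genes reach in their own best window. The SRSF11 window has 79, which 1.403% reach, and the SRSF2 window has 54, which 94.4% reach. RBM25 is the gene with the second highest ratio of EV 100K to EV 2.8K among these regulators, whereas SRSF2 and SRSF11 have the lowest ones. A long purine tract is thus found at both ends. It is not shared by the gene with the highest ratio, HNRNPA3, whose best window has 65 purines. HNRNPL, with one of the lowest ratios, also has 65. HNRNPUL2, with one of the highest, has 71, and the median of all tested genes is 62.

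Another set of sequences bears on how far the reads of HNRNPA3 can be told from those of its processed pseudogenes. HNRNPA3P6 (chromosome 3) is 99.6% identical to the HNRNPA3 coding sequence over 1002 aligned bases, and HNRNPA3P5 (chromosome 13) 97.8% over 829 bases. The 90-base window with the most differences among the 3 genes, bases 748 to 837 of the HNRNPA3 coding sequence, is shown 5′ to 3′ with the 6 positions that differ in capitals.
HNRNPA3: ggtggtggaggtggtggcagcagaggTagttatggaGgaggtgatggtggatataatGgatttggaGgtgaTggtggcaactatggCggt
HNRNPA3P6: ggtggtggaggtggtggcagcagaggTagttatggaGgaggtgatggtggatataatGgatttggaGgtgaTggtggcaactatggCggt
HNRNPA3P5: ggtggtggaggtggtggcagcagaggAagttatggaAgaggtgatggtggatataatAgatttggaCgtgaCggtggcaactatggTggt
HNRNPA3 and HNRNPA3P6 have the same letters throughout this window, and only HNRNPA3P5 differs.

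The first question is which of these mRNAs differed between pellets. Of the 46 members, 41 had enough counts to be tested over the 9 EV libraries. In EV 100K against EV 2.8K, 11 were higher and 13 lower, 24 in all, with an edgeR quasi-likelihood adjusted p below 0.05. Of all 15525 genes tested, 25.8% passed, 12.0% higher and 13.8% lower. Of protein-coding genes, 29.5% passed. The median log2 fold change of the tested members was -0.18, against -0.06 for all genes tested. By group, 8 hnRNP genes were higher and 7 lower of 24 tested, 1 SR protein gene higher and 5 lower of 11, and 2 SR-related genes higher and 1 lower of 6. The heat map of all libraries shows the members ordered by this comparison. At the upper end are hnRNP and SR-related genes, and the highest SR protein gene is SRSF4 (log2 fold change 0.59). The lowest ratios are those of SRSF2, SRSF11, HNRNPL, SRSF5, SRSF7 and SRSF6.

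**Figure D1:**
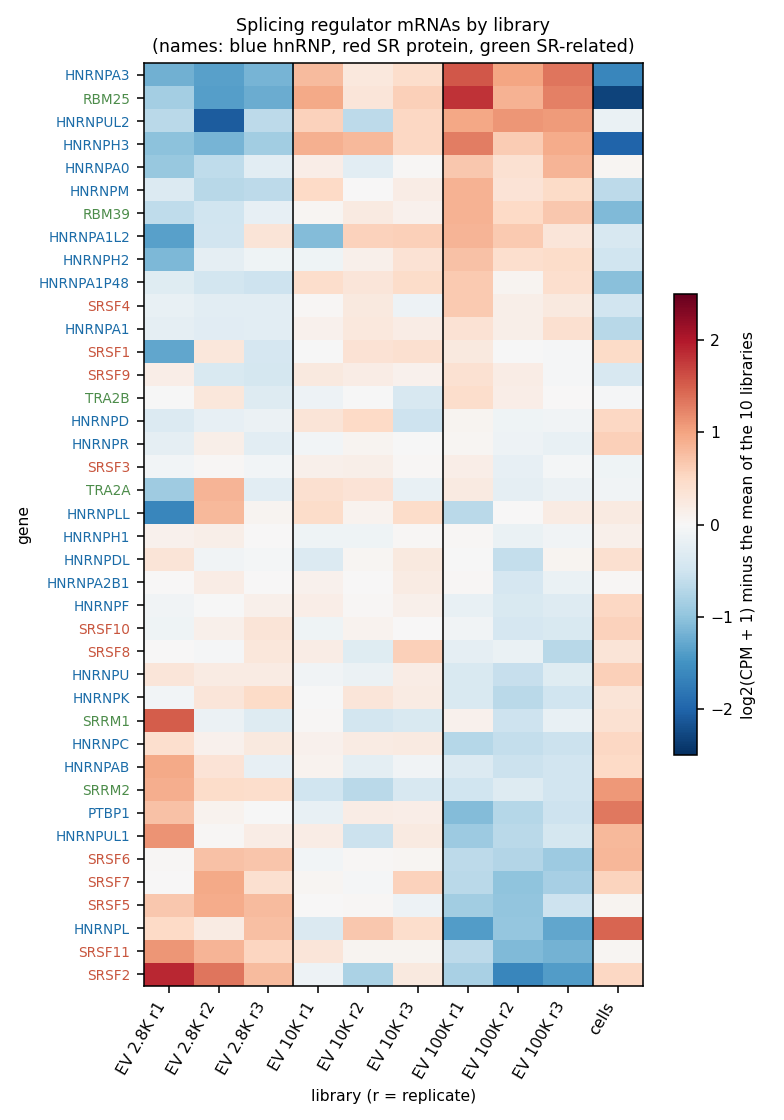
Level of 40 members in each library, as log2(CPM + 1) minus the mean of the 10 libraries, for EV 2.8K, EV 10K, EV 100K and cells from left to right. Rows run from the highest to the lowest ratio of EV 100K to EV 2.8K, from HNRNPA3 (log2 fold change 2.53) to SRSF2 (-2.73), and the readthrough gene HNRNPUL2-BSCL2 is left out.

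A joint test for any difference among the 3 pellets passed for 21 of the 41 tested members, against 23.3% of all genes tested. In 8 of these 21 the pellet means increased with each faster spin, and in 12 they decreased with each. Over all 41, the means increased with each spin in 13, decreased in 15 and had another order in 13. The shares of all genes tested with these orders were not computed. The counts therefore do not tell whether stepwise change is particular to these genes. Without EV 2.8K replicate 1, 12 members rose and 13 fell in EV 100K relative to EV 2.8K, and the joint test passed for 21.

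RBM25, HNRNPA3 and HNRNPH3 rose in both EV 10K and EV 100K, each to over 3-fold its EV 2.8K level in either pellet. RBM25 (chr14:73058436-73123898, GRCh38) encodes a regulator of alternative 5′ splice sites that contacts U1 snRNP. Its level was 878, 609 and 671 CPM in EV 2.8K, 3049, 1959 and 2394 CPM in EV 10K and 5513, 2913 and 3805 CPM in EV 100K. The 3 pellets did not overlap between EV 2.8K and the faster spins, and EV 10K replicate 1 lay above the lowest EV 100K library. RBM25 was 5.58-fold higher in EV 100K than in EV 2.8K (log2 fold change 2.48, SE 0.25, edgeR adjusted p = 8.97e-07) and 3.40-fold higher in EV 10K than in EV 2.8K (log2 fold change 1.77, SE 0.24, edgeR adjusted p = 0.000138). For EV 100K against EV 10K it did not pass (log2 fold change 0.72, SE 0.24, edgeR adjusted p = 0.0598), though it passed in 5 of 8 other settings of the test and without EV 2.8K replicate 1, EV 10K replicate 1 or EV 100K replicate 2.

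HNRNPA3 (chr2:177212563-177223958) encodes an hnRNP of the A/B type, related to hnRNP A1 and A2/B1. It had 309.5, 275 and 315 CPM in EV 2.8K, 1220.0, 857 and 962 CPM in EV 10K and 2079, 1402 and 1801 CPM in EV 100K. Each library of a faster spin was above each library of the slower one. It had the largest ratio of EV 100K to EV 2.8K among the tested members, 5.78-fold (log2 fold change 2.53, SE 0.21, edgeR adjusted p = 9.31e-08). It also was 3.35-fold higher in EV 10K than in EV 2.8K (log2 fold change 1.74, SE 0.20, edgeR adjusted p = 2.99e-05). It was the only member called higher in EV 100K than in EV 10K (log2 fold change 0.79, SE 0.20, edgeR adjusted p = 0.0129), and dropping 1 of 3 libraries, replicates 2 and 3 of EV 10K and replicate 1 of EV 100K, ended that call (edgeR adjusted p = 0.0722 to 0.0788).

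HNRNPH3 (chr10:68331174-68343191) encodes the smallest hnRNP of the H/F type, which binds runs of guanine. Its libraries held 474, 431 and 530.2 CPM in EV 2.8K, 1789.8, 1686 and 1383 CPM in EV 10K and 2349, 1499 and 1836 CPM in EV 100K. EV 2.8K was separate from the faster spins, while EV 10K and EV 100K overlapped. The log2 fold change was 1.75, SE 0.20 for EV 10K against EV 2.8K (edgeR adjusted p = 2.99e-05) and 1.96, SE 0.20 for EV 100K against EV 2.8K (edgeR adjusted p = 1.31e-06). EV 100K and EV 10K did not differ past the threshold (log2 fold change 0.22, SE 0.20, edgeR adjusted p = 0.614).

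**Figure D2:**
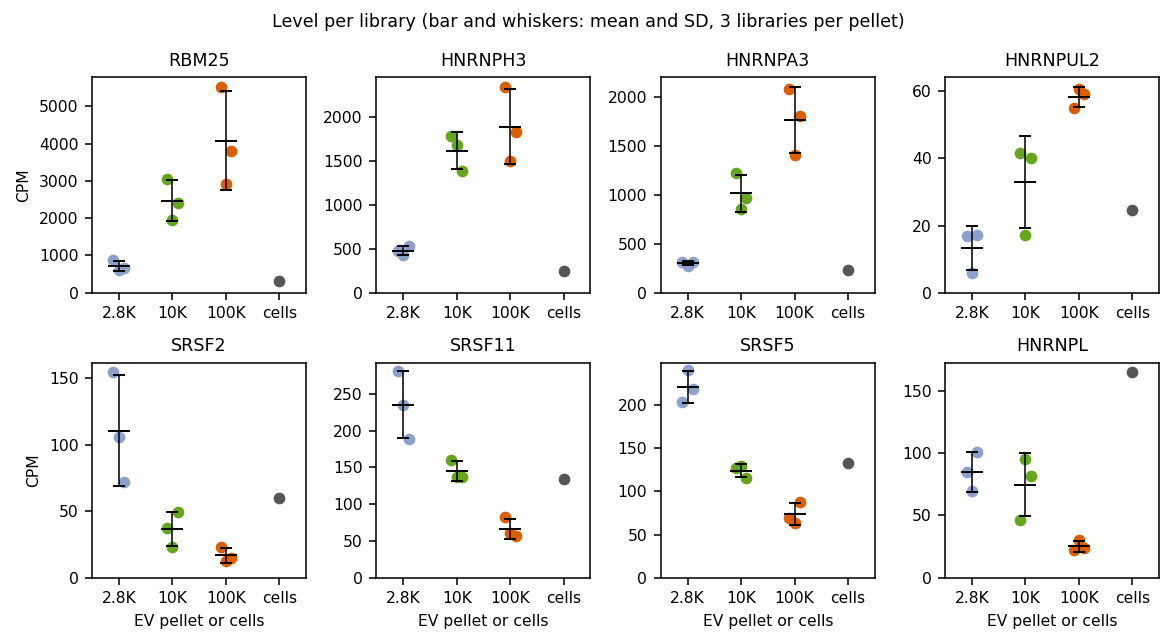
CPM of 8 members in every library (points, 1 per library), for the 3 pellets and the cell library, with the mean and SD of each pellet. The 4 genes of the upper row have their highest mean in EV 100K, and the 4 of the lower row their lowest, while SRSF5 and SRSF11 are at about the level of EV 10K in cells.

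Per kb of exon these 3 genes had the highest levels in EV 100K, and HNRNPH3 and RBM25 were among the 3 highest in EV 10K. In EV 100K the highest mean levels were 353 CPM per kb for HNRNPH3, 344 for RBM25 and 292 for HNRNPA3. In EV 10K they were 301 for HNRNPH3, 214 for HNRNPM and 208 for RBM25. In EV 2.8K the order was HNRNPAB (217 CPM per kb), HNRNPA1 (139) and HNRNPA2B1 (128), and in cells HNRNPAB (227), HNRNPA2B1 (123) and HNRNPF (119.8). The leading genes of EV 2.8K and cells are thus nearly the same abundant hnRNP genes. The divisor is the combined length of all annotated exons, which exceeds that of the main transcript by unequal amounts. It is 11859 against 6910 bp for RBM25 and 5614 against 2494 bp for HNRNPM, so the order depends on this choice.

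The pseudogenes of HNRNPA3 moved with it. HNRNPA3P6 had 43.3, 51.1 and 84.1 CPM in EV 2.8K, 317, 210.1 and 249 CPM in EV 10K and 491, 316 and 399 CPM in EV 100K. Its log2 fold change was 2.73, SE 0.27 in EV 100K against EV 2.8K (edgeR adjusted p = 8.53e-07), and that of HNRNPA3P5 was 3.21, SE 0.35 (edgeR adjusted p = 2.33e-06). The 16 annotated copies together had 29.8% of the HNRNPA3 level in EV 2.8K, 37.5% for EV 10K, 37.5% for EV 100K and 32.1% for cells. The levels of HNRNPA3 and of these copies are uncertain, since how the counting treated reads with several matches is not given here, though parent and copies have the same direction.

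Further hnRNP genes were higher in EV 100K. HNRNPUL2 (chr11:62712630-62727472), a relative of the nuclear scaffold protein hnRNP U, was low, with 17, 5.81 and 17.1 CPM in EV 2.8K, 41.6, 17.3 and 40.2 CPM in EV 10K and 55, 60.8 and 59.2 CPM in EV 100K. All EV 100K libraries were above all others, and EV 10K replicate 2 was close to the EV 2.8K libraries. The difference between EV 100K and EV 2.8K passed (4.32-fold, log2 fold change 2.11, SE 0.44, edgeR adjusted p = 0.00136). Of its exonic bases, 44.1% are shared with the readthrough gene HNRNPUL2-BSCL2, which had counts in only 3 libraries (35 in EV 2.8K replicate 2, 14 in EV 100K replicate 1 and 9 in EV 100K replicate 2).

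HNRNPA0, whose protein binds AU-rich elements, had 34.1, 42.7 and 56 CPM in EV 2.8K, 75.6, 55.6 and 68.1 CPM in EV 10K and 107, 87.3 and 122 CPM in EV 100K (log2 fold change 1.23, SE 0.27, edgeR adjusted p = 0.00191 for EV 100K against EV 2.8K). HNRNPM, which binds GU-rich sequence, had 802, 626 and 643 CPM in EV 2.8K, 1428, 1016 and 1152 CPM in EV 10K and 1854, 1284 and 1421 CPM in EV 100K. Both have EV 2.8K libraries below every EV 100K library. HNRNPM was higher in EV 100K (log2 fold change 1.12, SE 0.20, edgeR adjusted p = 0.000377) and in EV 10K (log2 fold change 0.78, SE 0.20, edgeR adjusted p = 0.0232) than in EV 2.8K, and the second call failed on dropping replicate 2 of EV 2.8K (edgeR adjusted p = 0.0668) or replicate 1 of EV 10K (0.124).

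Smaller differences of EV 100K from EV 2.8K passed for HNRNPH2 (0.96 on the log2 scale), HNRNPA1P48 (0.80) and HNRNPA1 (0.54). HNRNPA1, the most studied hnRNP and a repressor of many exons, had 727, 690.2 and 703 CPM in EV 2.8K, 905, 1017 and 958 CPM in EV 10K and 1092, 937 and 1109 CPM in EV 100K, with every EV 2.8K library below the others. Dropping replicate 1 of EV 100K ended each of these 3 calls (edgeR adjusted p = 0.0934 for HNRNPH2, 0.0576 for HNRNPA1P48 and 0.0794 for HNRNPA1), and dropping replicate 3 of EV 100K ended that of HNRNPA1 (0.114). With library totals only, HNRNPH2 (0.0894) and HNRNPA1 (0.0824) also failed, as did HNRNPA1 with no filter on low counts (0.0503). HNRNPA1P48 was also higher in EV 10K than in EV 2.8K (log2 fold change 0.81, SE 0.20, edgeR adjusted p = 0.0209), a call that failed on dropping replicate 1 (edgeR adjusted p = 0.0705) or replicate 3 (0.0515) of EV 10K. HNRNPA1 has 74 annotated copies, 41 of them with counts, and they sum to 33.0% of its level in EV 2.8K, 24.8% for EV 10K, 23.6% for EV 100K and 22.0% for cells, so the counts of HNRNPA1 and HNRNPA1P48 are uncertain.

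The hnRNP genes that fell in EV 100K relative to EV 2.8K were HNRNPL, HNRNPUL1, PTBP1, HNRNPAB, HNRNPC, HNRNPK and HNRNPU. HNRNPL (chr19:38836388-38852347) encodes a protein that binds CA repeats. It had 84.8, 69.2 and 101 CPM in EV 2.8K, 46.5, 95.4 and 81.5 CPM in EV 10K and 21.9, 30.1 and 23.6 CPM in EV 100K. The EV 2.8K and EV 10K libraries overlapped, and all EV 100K libraries were lower than both. HNRNPL fell in EV 100K against EV 2.8K (log2 fold change -1.77, SE 0.31, edgeR adjusted p = 0.000266) and against EV 10K (log2 fold change -1.57, SE 0.31, edgeR adjusted p = 0.00237).

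PTBP1, the polypyrimidine tract binding protein that keeps neuronal exons skipped outside neurons, had 251, 159 and 149 CPM in EV 2.8K, 131, 172 and 169 CPM in EV 10K and 70.2, 90.9 and 105 CPM in EV 100K. Its level in EV 10K overlapped that in EV 2.8K, and EV 100K was below both. It fell in EV 100K against EV 2.8K (log2 fold change -1.09, SE 0.25, edgeR adjusted p = 0.00262) and against EV 10K (log2 fold change -0.83, SE 0.24, edgeR adjusted p = 0.0339), the second call failing on dropping 1 of 4 libraries, replicates 2 and 3 of EV 10K and replicates 1 and 2 of EV 100K (edgeR adjusted p = 0.0894 to 0.183), and with DESeq2 size factors (0.0540).

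HNRNPC, which binds uridine tracts and shields cryptic exons, had 246, 199.9 and 219.8 CPM in EV 2.8K, 199.9, 213 and 215 CPM in EV 10K and 113, 122 and 126 CPM in EV 100K. It had about the same level in the slower pellets and a lower one in EV 100K, where it fell against EV 2.8K (log2 fold change -0.91, SE 0.19, edgeR adjusted p = 0.00141) and EV 10K (log2 fold change -0.81, SE 0.19, edgeR adjusted p = 0.00854). The last call failed on dropping replicate 1 of EV 100K (edgeR adjusted p = 0.0605). HNRNPK, which binds C-rich sequence, fell against EV 2.8K (-0.79, SE 0.20) and EV 10K (-0.70, SE 0.20), the second call failing on dropping any 1 of the EV 100K libraries or of replicates 2 and 3 of EV 10K (edgeR adjusted p = 0.0581 to 0.146).

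HNRNPU (-0.67 on the log2 scale), HNRNPUL1 (-1.22) and HNRNPAB (-0.91) fell in EV 100K against EV 2.8K. In EV 2.8K, replicate 1 was the highest library of HNRNPUL1 (451, 212 and 236 CPM) and of HNRNPAB (665, 432 and 297 CPM). The calls of HNRNPUL1 and HNRNPAB were kept without it. The HNRNPU call failed on dropping replicate 2 of EV 100K (edgeR adjusted p = 0.0689), and 15.6% of its exonic bases overlap COX20 on the other strand.

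Ratios between close relatives within the hnRNP family are given next. The ratio of HNRNPH3 to HNRNPH1, which did not pass in any pellet comparison, was 1.56, 1.37 and 1.86 in EV 2.8K, 6.8, 6.43 and 4.81 for EV 10K and 8.19, 5.96 and 6.93 for EV 100K, against 0.778 in cells. The ratio of HNRNPA3 to HNRNPA2B1 was 0.272, 0.214 and 0.277 in EV 2.8K, 1.01, 0.757 and 0.738 for EV 10K and 1.81, 1.66 and 1.81 for EV 100K, against 0.199 in cells. These are ratios of CPM within a library, in which the scaling of the library cancels, and they are described without a test since the pairs were chosen after the values were seen. In both, no library of EV 2.8K reached any library of a faster spin. The ratio of HNRNPLL to HNRNPL was 0.0632, 0.482 and 0.194 in EV 2.8K and 0.558, 0.208 and 0.320 in EV 10K. It was 0.519, 0.628 and 0.925 in EV 100K, against 0.134 in cells, and EV 10K overlapped both other pellets.

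HNRNPUL2 to HNRNPUL1, which encode relatives of hnRNP U, gave 0.0377, 0.0274 and 0.0725 in EV 2.8K, 0.176, 0.121 and 0.167 for EV 10K and 0.50, 0.467 and 0.39 for EV 100K, against 0.0676 in cells. Of the A/B type, HNRNPA3, HNRNPA0 and HNRNPA1 were higher in EV 100K than in EV 2.8K, while HNRNPA2B1 (log2 fold change -0.27, SE 0.18, edgeR adjusted p = 0.297) did not pass. HNRNPAB, the gene of hnRNP A/B, was lower in EV 100K (log2 fold change -0.91, SE 0.24, edgeR adjusted p = 0.00786). Of the H/F type, HNRNPH3 and HNRNPH2 were higher, and HNRNPH1 (-0.19) and HNRNPF (-0.33) did not pass.

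**Figure D3:**
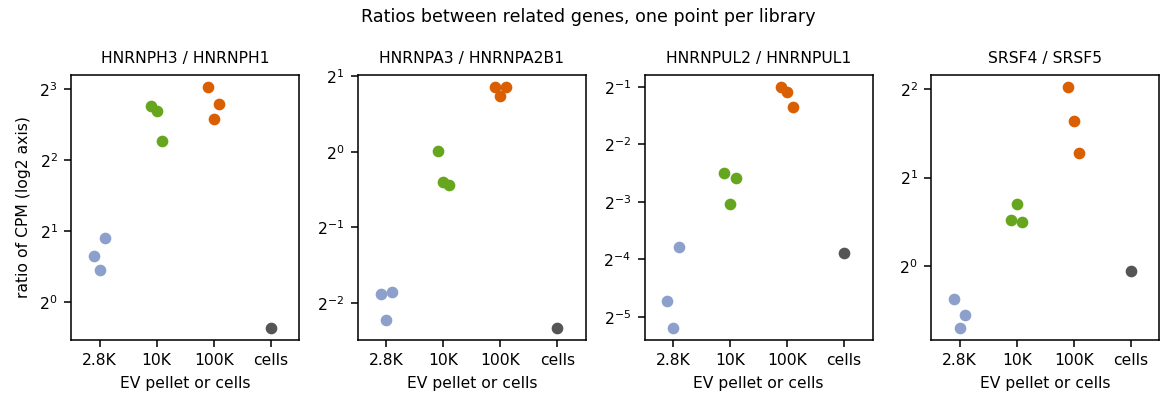
Ratio of CPM between related genes in every library, on a log2 axis, for the 3 pellets and the cell library. In each of the 4 panels the EV 2.8K points lie below the EV 10K points, and the EV 100K points are the highest except where HNRNPH3 / HNRNPH1 overlaps between EV 10K and EV 100K.

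Of the 11 tested SR protein genes, 5 fell in EV 100K against EV 2.8K, 1 rose and 5 did not pass, where 13.8% of all genes tested fell and 12.0% rose. SRSF2 (chr17:76734115-76737374), which binds exonic enhancers and regulates its own transcript, had 154, 106 and 71.8 CPM in EV 2.8K, 37.5, 23.2 and 49.3 CPM in EV 10K and 22.9, 12.7 and 14.9 CPM in EV 100K. The libraries of the 3 pellets did not overlap. SRSF2 had the lowest ratio of EV 100K to EV 2.8K of the tested members, 0.151-fold (log2 fold change -2.73, SE 0.37, edgeR adjusted p = 2.31e-05). It also fell in EV 10K against EV 2.8K (log2 fold change -1.60, SE 0.35, edgeR adjusted p = 0.00919), a call that failed on dropping replicate 2 of EV 10K (edgeR adjusted p = 0.0637), and in EV 100K against EV 10K (log2 fold change -1.13, SE 0.36, edgeR adjusted p = 0.0499), a call lost without any 1 of 5 libraries (0.0682 to 0.246) and with DESeq2 size factors (0.0676). Of its exonic bases, 36.7% overlap MFSD11 on the other strand, with no strand setting of the counting given in the sources used here.

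SRSF11 (chr1:70205682-70253052), also called p54, had 281, 235 and 189 CPM in EV 2.8K, 160.5, 137 and 137 CPM in EV 10K and 82.2, 60.4 and 57.3 CPM in EV 100K. SRSF5 had 203, 239.7 and 218 CPM in EV 2.8K, 127, 129 and 115 CPM in EV 10K and 68.7, 63.6 and 87.8 CPM in EV 100K. In both genes each faster spin was below each slower one. In EV 100K against EV 2.8K, SRSF11 fell by 1.84 on the log2 scale (SE 0.23, edgeR adjusted p = 9.18e-06) and SRSF5 by 1.61 (SE 0.21, edgeR adjusted p = 1.63e-05).

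SRSF6, which also binds purine-rich enhancers, had 151, 247 and 241 CPM in EV 2.8K, 141, 153 and 154 CPM in EV 10K and 94.1, 88.9 and 79.1 CPM in EV 100K (log2 fold change -1.31, SE 0.22, edgeR adjusted p = 0.000251 for EV 100K against EV 2.8K). SRSF7, which has a zinc knuckle and links splicing to export through NXF1, had 61.7, 119 and 80.5 CPM in EV 2.8K, 63.4, 60 and 91.1 CPM in EV 10K and 37.7, 29.8 and 33.9 CPM in EV 100K (log2 fold change -1.39, SE 0.29, edgeR adjusted p = 0.00159). For both the EV 100K libraries lay under all others. SRSF4 was the 1 SR protein gene higher in EV 100K than in EV 2.8K (log2 fold change 0.59, SE 0.20, edgeR adjusted p = 0.0395), with 157, 148 and 149 CPM in EV 2.8K, 183, 211 and 163 CPM in EV 10K and 280.5, 197 and 213 CPM in EV 100K. That call was lost without any 1 of 5 libraries (edgeR adjusted p = 0.0514 to 0.252), with library totals only (0.126), with no filter on low counts (0.0836) and in a fit on all 10 libraries (0.0610).

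Against EV 10K, 5 of 11 SR protein genes were lower in EV 100K, namely SRSF2, SRSF5, SRSF6, SRSF7 and SRSF11, where 7.23% of all genes tested were lower. SRSF11 (-1.13, SE 0.22) kept its call without any 1 library, while SRSF7 (-1.09, SE 0.29), SRSF5 (-0.77, SE 0.21) and SRSF6 (-0.78, SE 0.22) lost it without 4, 4 and 6 libraries taken singly (edgeR adjusted p = 0.0520 to 0.132, 0.0579 to 0.145 and 0.0511 to 0.154), and SRSF6 also with library totals only (0.0523). The ratio of SRSF4 to SRSF5 was 0.771, 0.616 and 0.683 in EV 2.8K, 1.44, 1.63 and 1.41 for EV 10K and 4.08, 3.11 and 2.42 for EV 100K, against 0.965 in cells, with no overlap between pellets.

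Among the SR-related genes, RBM39 moved with RBM25. RBM39, a U2AF-like splicing factor that aryl sulfonamides mark for degradation, had 199.5, 220.2 and 269.5 CPM in EV 2.8K, 319, 361 and 335 CPM in EV 10K and 563, 438 and 495 CPM in EV 100K. No pellet overlapped another, and EV 100K was higher than EV 2.8K (log2 fold change 1.10, SE 0.19, edgeR adjusted p = 0.000275). SRRM2, a scaffold of nuclear speckles, had 770.4, 566 and 562 CPM in EV 2.8K, 290.2, 257 and 312 CPM in EV 10K and 292, 328 and 297 CPM in EV 100K. Both faster pellets were below EV 2.8K and overlapped each other (log2 fold change -1.16, SE 0.19, edgeR adjusted p = 0.000824 for EV 10K and log2 fold change -1.07, SE 0.19, edgeR adjusted p = 0.000327 for EV 100K).

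SRRM1, a coactivator that bridges SR proteins and snRNPs, had 474, 149 and 132 CPM in EV 2.8K, of which only replicate 1 was high, 168, 119 and 125 CPM in EV 10K and 176, 114 and 143 CPM in EV 100K, and did not pass (log2 fold change -0.82, SE 0.39, edgeR adjusted p = 0.143 for EV 100K against EV 2.8K). TRA2A and TRA2B, which bind GAA-rich enhancers, did not pass in any comparison, and their log2 fold changes for EV 100K against EV 2.8K were -0.14 and 0.19.

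**Figure D4:**
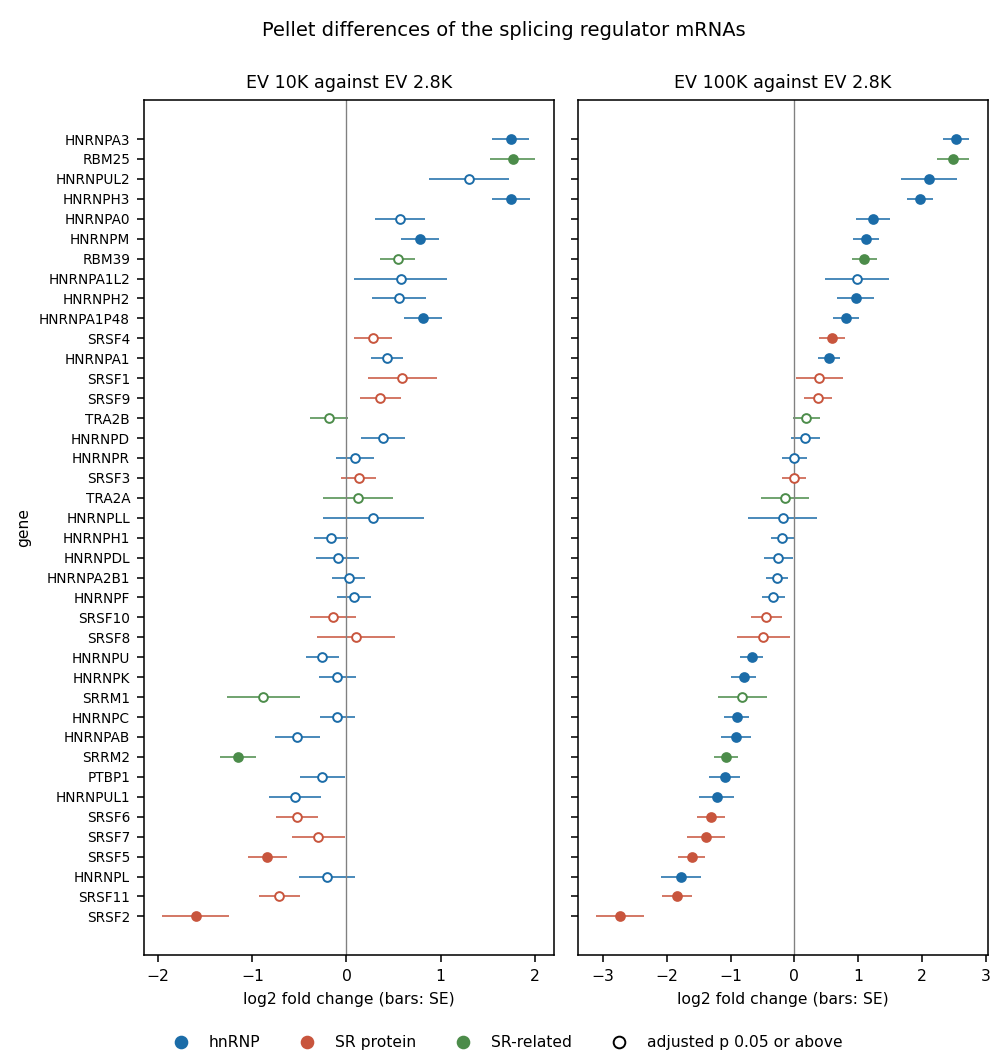
Log2 fold change (bars show the SE) of 40 members for EV 10K against EV 2.8K and EV 100K against EV 2.8K, colored by family, with filled points for an adjusted p below 0.05. In EV 10K, 8 of the 41 tested members passed, against 24 in EV 100K, and the order of the members is similar in both panels, which share the EV 2.8K libraries.

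The second comparison asks what already differs in EV 10K. There 8 of 41 tested members passed against EV 2.8K, 5 higher and 3 lower. Of all genes tested, 6.38% passed, 4.15% higher and 2.22% lower. The median log2 fold change was 0.08 for members and -0.01 for all genes. The members were RBM25, HNRNPH3, HNRNPA3, HNRNPA1P48 and HNRNPM, all higher, and SRSF2, SRRM2 and SRSF5, all lower. SRSF5 (log2 fold change -0.84, SE 0.21, edgeR adjusted p = 0.0189) failed on dropping any 1 EV 10K library or replicate 2 of EV 2.8K (edgeR adjusted p = 0.0606 to 0.107), and HNRNPUL2 (log2 fold change 1.30, SE 0.43, edgeR adjusted p = 0.083) and SRSF11 (log2 fold change -0.71, SE 0.22, edgeR adjusted p = 0.0653) did not pass, though both passed with the replicate block (edgeR adjusted p = 0.0455 and 0.0376), HNRNPUL2 in 4 other settings and SRSF11 in 3. In EV 100K against EV 10K, 10 of 41 passed, 1 higher and 9 lower, against 10.9% of all genes tested, 3.70% higher and 7.23% lower, and the medians were -0.16 for members and 0.01 for all genes. Of these 10 calls, 8 were lost when some 1 library was left out, and HNRNPL and SRSF11 were not. Without EV 2.8K replicate 1, 3 members were higher and 10 lower, and 2549 genes of all tested passed, against 1697 with it.

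The members that passed no pellet comparison include abundant genes with nearly equal levels. SRSF3, a shuttling SR protein that promotes export, had 219, 234 and 220.1 CPM in EV 2.8K, 252, 255 and 236 CPM in EV 10K and 258, 201 and 222 CPM in EV 100K. HNRNPH1 had 304, 314 and 285 CPM in EV 2.8K, 263, 262 and 288 CPM in EV 10K and 287, 251 and 265 CPM in EV 100K. In EV 100K against EV 2.8K, HNRNPR (log2 fold change -5.7e-05, SE 0.20) and SRSF3 (-0.0048, SE 0.18) were nearest to 0. The libraries of HNRNPR overlapped between all pellets, and those of SRSF3 did so except that each EV 10K library was above each EV 2.8K library. The others without a call in this comparison were HNRNPA2B1, HNRNPD, HNRNPDL, HNRNPF, HNRNPH1, HNRNPLL, HNRNPA1L2, SRSF1, SRSF8, SRSF9, SRSF10, SRRM1, TRA2A, TRA2B and HNRNPUL2-BSCL2, with HNRNPA1L2 (0.99, SE 0.50) and HNRNPLL (-0.18, SE 0.54) among the least precise.

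The 5 members that were not tested over the pellets were low. HNRNPCL1, HNRNPCL3 and HNRNPCL4 had 0 counts in all 10 libraries, and HNRNPCL2 had 11 counts in cells and 0 in all EV libraries. A count of 0 allows up to 0.104 CPM in cells and up to 0.553 CPM in EV 100K replicate 2, the shallowest library. Unlike the other CPM values, these limits are relative to library totals without TMM scaling. SRSF12 had 37 counts in cells, and 0 to 6 in EV libraries.

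The third set of comparisons sets each pellet against cells. The cell library has no replicate, so it is assumed to vary like the EV libraries, and 42 members were tested. In EV 100K against cells 18 passed, 7 higher and 11 lower, against 10.0% of 22370 genes tested, 4.59% higher and 5.46% lower. The median log2 fold change of the members was -0.48, against -0.06 for all genes. In EV 10K against cells 7 passed, 5 higher and 2 lower, against 4.43% of all genes (2.82% higher and 1.60% lower). In EV 2.8K against cells 1 passed, RBM25, which was higher, against 2.23% of all genes (1.54% higher and 0.693% lower). The medians were -0.13 for members and -0.04 for all genes in EV 10K, and -0.04 for members and 0 for all genes in EV 2.8K.

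RBM25 was at 320.0 CPM in cells, below every EV library. It was 12.7-fold higher in EV 100K than in cells (log2 fold change 3.67, SE 0.37, edgeR adjusted p = 3.21e-21), 7.71-fold higher in EV 10K (log2 fold change 2.95, SE 0.35, edgeR adjusted p = 1.08e-14) and 2.25-fold higher in EV 2.8K (log2 fold change 1.17, SE 0.31, edgeR adjusted p = 0.0113). The last call was lost with library totals only (edgeR adjusted p = 0.0639) and with protein-coding genes only (0.0854). HNRNPH3 was at 241 CPM in cells, also below every EV library, and was higher in EV 100K (log2 fold change 2.97, SE 0.36, edgeR adjusted p = 1.56e-14) and EV 10K (log2 fold change 2.75, SE 0.35, edgeR adjusted p = 1.68e-12). HNRNPA3 had 227 CPM in cells, below every EV library, and 2.96 and 2.16 on the log2 scale in EV 100K and EV 10K against cells.

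HNRNPL was at 165 CPM in cells, above every EV library, and 0.153-fold in EV 100K (log2 fold change -2.71, SE 0.38, edgeR adjusted p = 8.31e-11). PTBP1 was at 377 CPM in cells, also above every EV library, and fell in EV 100K (log2 fold change -2.09, SE 0.32, edgeR adjusted p = 2.62e-09) and in EV 10K (log2 fold change -1.26, SE 0.32, edgeR adjusted p = 0.00365). SRRM2, at 874 CPM in cells, fell in EV 10K (log2 fold change -1.61, SE 0.29, edgeR adjusted p = 2.18e-06). Of SR protein genes, SRSF2 (log2 fold change -1.82), SRSF6 (-1.60), SRSF7 (-1.41) and SRSF11 (-1.01) fell in EV 100K against cells. The SRSF11 call failed with DESeq2 size factors (edgeR adjusted p = 0.0948), in the DESeq2 Wald test (adjusted p = 0.0573) and on dropping replicate 2 or 3 of EV 100K (edgeR adjusted p = 0.106 and 0.138). For SRSF2, the cell level of 59.7 CPM was between the levels of EV 2.8K and EV 10K, and SRSF11 and SRSF5 in cells (135 and 133 CPM) were below all EV 2.8K libraries.

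In sum over the 46 members, their share of all counts of a library was 1.03, 1.17 and 1.16% in EV 2.8K, 1.42, 1.35 and 1.37% for EV 10K and 1.73, 1.37 and 1.52% for EV 100K, against 1.3% in cells. The mean was 1.12 ± 0.0787% for EV 2.8K, 1.38 ± 0.0375% for EV 10K and 1.54 ± 0.181% for EV 100K (SD, n = 3 each). RBM25, HNRNPH3 and HNRNPA3 took 0.155 ± 0.0148% in EV 2.8K, 0.489 ± 0.0602% for EV 10K and 0.719 ± 0.147% for EV 100K, against 0.0955% in cells. The other 43 took 0.964 ± 0.0731% in EV 2.8K, 0.891 ± 0.0251% for EV 10K and 0.822 ± 0.0344% for EV 100K, against 1.21% in cells. The 3 genes were set apart because they rose in the faster pellets, so the smaller share of the other 43 in EV 100K is in part fixed by that choice and is a description only. The 12 SR protein genes took 0.13, 0.176 and 0.16% in EV 2.8K, 0.115, 0.126 and 0.12% for EV 10K and 0.101, 0.0918 and 0.0887% for EV 100K, with no overlap between pellets, against 0.159% in cells.

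The purine share of the coding sequence, which the choice of members did not use, varied from 48.1% in SRSF8 to 63.5% in RBM25 among 40 members with a log2 fold change. Across these genes, its Spearman correlation with the log2 fold change of EV 100K against EV 2.8K was 0.50 (Pearson 0.53), against 0.07 (Pearson 0.05) over 11975 protein-coding genes tested. Within hnRNP genes Spearman's rho was 0.45 (n = 23), and within SR and SR-related genes 0.27 (n = 17). Other features were correlated as well, and the purine shares had the largest values in members. In members rho was 0.51 for transcript purines, -0.14 for transcript length, -0.01 for 3′ untranslated length and -0.17 for G + C share. Over the protein-coding genes tested these values were 0.06, 0.24, 0.25 and -0.19. Coding length and exon number gave 0.04 and -0.06 in members, and 0.08 and -0.01 in protein-coding genes. Genes are not independent replicates, and members of one family share sequence, so these values are descriptions. HNRNPA3 (61.1%), HNRNPH3 (61.6%) and RBM25 (63.5%) have high shares, but so do HNRNPD (62.8%) and HNRNPA2B1 (62.6%), which did not pass. The number of purines in the most purine-rich window, as in the RBM25 and SRSF11 sequences above, had a median of 67 in members called higher and 64 in members called lower. The median was also 64 over these 40 members and 62 in all tested genes.

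**Figure D5:**
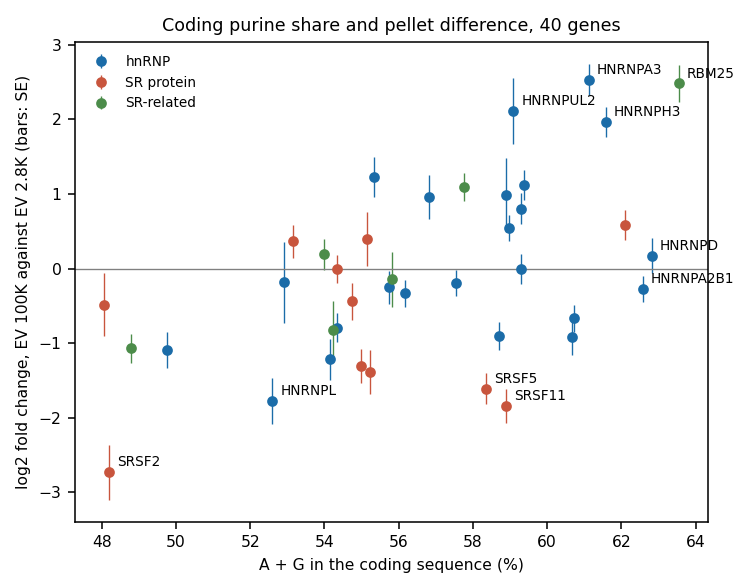
Purine (A + G) share of the coding sequence in percent against the log2 fold change of EV 100K against EV 2.8K (bars show the SE) for 40 members, colored by family. RBM25 (63.5%) is at the upper right and SRSF2 (48.2%) at the lower left, while HNRNPA2B1 and HNRNPD, with similar shares to RBM25, lie near 0.

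The wider set of hnRNP-like genes, a list of 25 that excludes the members, had 23 tested genes, of which 6 rose and 4 fell in EV 100K relative to EV 2.8K, with a median log2 fold change of -0.04, where 12.0% of all genes tested rose and 13.8% fell with a median of -0.06. CIRBP, a cold-inducible RNA-binding protein, had 59.9, 49.5 and 40.2 CPM in EV 2.8K, 168, 166 and 149 CPM in EV 10K and 364, 328 and 337 CPM in EV 100K (log2 fold change 2.76, SE 0.21, edgeR adjusted p = 6.06e-08). TAF15, an RNA-binding protein found with the general transcription factor TFIID, had 157, 141 and 145 CPM in EV 2.8K, 641, 480.2 and 471 CPM in EV 10K and 987, 724 and 900.5 CPM in EV 100K (log2 fold change 2.54, SE 0.20, edgeR adjusted p = 7.53e-08). SYNCRIP, also called hnRNP Q, rose as well (log2 fold change 1.65, SE 0.22, edgeR adjusted p = 1.62e-05). Each of these genes had no overlap between EV 2.8K and EV 100K.

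Among 37 genes of SR-related and U1- or U2-associated proteins, 35 were tested, and 6 rose and 15 fell in EV 100K relative to EV 2.8K, with a median log2 fold change of -0.49, where the same shares of all genes (12.0% and 13.8%) and median (-0.06) apply. CCNL1, a cyclin with an arginine-serine tail, had 95.5, 100 and 88.3 CPM in EV 2.8K, 24, 10.6 and 19.6 CPM in EV 10K and 17.4, 13.6 and 9.31 CPM in EV 100K (log2 fold change -2.83, SE 0.37, edgeR adjusted p = 1.45e-05). RSRP1 (log2 fold change -4.15, SE 0.55, edgeR adjusted p = 1.63e-05) and ARGLU1 (log2 fold change -2.35, SE 0.30, edgeR adjusted p = 1.04e-05) also fell, and their EV 100K libraries were under all EV 2.8K libraries. These 3 genes were lowest in the pellets of the faster spins, as SRSF2 was.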

How the data were processed

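Total RNA of 9 EV libraries and 1 cell library was counted per gene. The authors deposited raw counts, which are whole numbers. Tools named without an order, per the submitters' processing notes, are featureCounts 1.6.3, STAR 2.6.1d, cutadapt 2.7 and bcl2fastq 2.19.1.403, and the build is GRCh38. Annotation, strand setting and the counting of multimapping reads were not given in the sources used here. Libraries were prepared with a stranded low-input kit, per the labels' protocols. Groups and set numbers came from the sample titles.

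Symbols, coordinates and sequences were taken from GENCODE release 29 by gene identifier. Genes were filtered with filterByExpr by group (minimum count 10), scaled by TMM factors and tested with the robust quasi-likelihood F-test of edgeR 4.0.16 (R 4.3.3). Benjamini-Hochberg adjusted p-values over all tested genes were held to 0.05. Pellets were compared on the 9 EV libraries (15525 genes, 6 residual degrees of freedom) and with cells on all 10 (22370 genes). DESeq2 1.42.0 gave alternatives. The script was tested on simulated counts. Tables and figures used Python 3.11.15, pandas 2.3.3 and matplotlib 3.10.9.

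Full values are given for up to 6 members called each way per pellet comparison (2 each way against cells), the 3 most abundant per kb, and up to 3 genes per related list by the joint test; others named were chosen after their values were seen. The members and lists were chosen with earlier results of these data known. Limits for a count of 0 use 3 counts of a library's total and cover counting error only.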

Additional observations from a re-analysis of the deposited data

How the results depend on the processing

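No call among members reversed its direction in any setting run. In EV 100K against EV 2.8K, 19 of 24 calls held when each EV library was left out in turn and in 8 other settings. The same settings kept 4 of 8 in EV 10K against EV 2.8K and 2 of 10 in EV 100K against EV 10K. Against cells, 15 of 18, 5 of 7 and 0 of 1 calls held for EV 100K, EV 10K and EV 2.8K. Those comparisons had fewer other settings, without the fit on the compared libraries only, the fit on all libraries and the replicate block. Their shares are therefore not directly comparable with those between pellets. Deviations of libraries with the same set number correlated weakly, at -0.00907 to 0.0481, under 0.1. Those of libraries with different numbers correlated at -0.0363 to 0.0299. The main test did not use the set number, and these values do not settle whether it pairs the libraries. With the set number as a replicate block, members higher in EV 100K against EV 10K went to 3, and 9 were lower. RBM25 passed in that comparison with the block (edgeR adjusted p = 0.00147).

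Leaving out 1 library gave these ranges of calls. EV 10K against EV 2.8K: 3 to 6 members higher, 1 to 4 lower, 557 to 1173 of all genes. EV 100K against EV 2.8K: 7 to 12, 12 to 14 and 2807 to 4137. EV 100K against EV 10K: 0 to 3, 3 to 10 and 979 to 2549. EV 2.8K against cells: 1 to 2, 0 to 1 and 357 to 752. EV 10K against cells: 5 to 7, 2 to 5 and 775 to 1522. EV 100K against cells: 6 to 9, 9 to 14 and 1710 to 2974. Any difference among pellets: 17 to 22 members and 2478 to 4111 genes.

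All genes called in EV 10K against EV 2.8K numbered 1635 with the DESeq2 Wald test and 561 on the 6 libraries compared, against 990, and in EV 100K against EV 10K 2777 on the 6 libraries, against 1697. Members higher in EV 100K against EV 10K were 2 with DESeq2 size factors, library totals only, no low-count filter or all 10 libraries, and 3 with the DESeq2 Wald test or 6 libraries, against 1. In EV 2.8K against cells, members higher were 2 with DESeq2 size factors and the DESeq2 Wald test and 0 with library totals only or protein-coding genes only, members lower were 1 with library totals only, against 0, and all genes called 277 with protein-coding genes only, against 499. With library totals only, which shifts the median log2 fold change of all genes (-0.21 in EV 100K against EV 2.8K, -0.42 for EV 100K and -0.37 for EV 10K against cells), 3 members were higher and 7 lower in EV 10K against cells, and 19 lower in EV 100K against cells. The cause of these moves was not tested.

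The summed share relative to protein-coding genes not encoded in mitochondria averaged 1.31% for EV 2.8K, 1.57% for EV 10K, 1.80% for EV 100K and 1.399% for cells, and relative to all counts without HNRNPA1 and HNRNPC 1.02%, 1.27% and 1.43% in the pellets and 1.21% in cells. Depth limits HNRNPCL1 to HNRNPCL4, SRSF12 and HNRNPUL2-BSCL2, and genes with copies or overlaps (19 members overlap another gene's exons) are uncertain.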

Other observations

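Proteins that phosphorylate or carry SR proteins had 16 tested genes, of which 3 rose and 5 fell in EV 100K relative to EV 2.8K. The kinases SRPK2 and SRPK1, which phosphorylate the arginine-serine tail, went opposite ways: SRPK2 had 312, 188 and 265 CPM in EV 100K and 101, 79.8 and 75.9 CPM in EV 2.8K (log2 fold change 1.55, SE 0.23, edgeR adjusted p = 4.47e-05), and SRPK1 had 134, 142 and 113 CPM in EV 100K and 269, 297 and 317 CPM in EV 2.8K (log2 fold change -1.20, SE 0.20, edgeR adjusted p = 0.000205). NXF1, the main mRNA export receptor, fell (log2 fold change -1.82, SE 0.29, edgeR adjusted p = 0.000133). Of 28 tested genes of other splicing regulators, 5 were higher and 7 lower. RBM6 rose (log2 fold change 2.12, SE 0.21, edgeR adjusted p = 9.65e-07), while the paraspeckle proteins SFPQ (log2 fold change -2.05, SE 0.20, edgeR adjusted p = 6.42e-07) and NONO (log2 fold change -1.56, SE 0.18, edgeR adjusted p = 5.1e-06) fell.

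Of 15 tested genes of the exon junction complex and of nonsense-mediated decay, 1 rose and 4 fell in EV 100K relative to EV 2.8K. MAGOH (log2 fold change -2.61, SE 0.35, edgeR adjusted p = 2.21e-05), MAGOHB (log2 fold change -1.92, SE 0.54, edgeR adjusted p = 0.013) and EIF4A3 (log2 fold change -2.20, SE 0.32, edgeR adjusted p = 5.18e-05), which make up its core with RBM8A, fell. The nuclear noncoding RNAs NEAT1 (log2 fold change -2.24, SE 0.44, edgeR adjusted p = 0.00147) and KCNQ1OT1 (log2 fold change -1.87, SE 0.36, edgeR adjusted p = 0.000755) fell, and MALAT1 (log2 fold change -0.78, SE 0.38, edgeR adjusted p = 0.154) did not pass. Across all genes tested, 25.8% passed in this comparison, 12.0% higher and 13.8% lower.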
